A study of Mus musculus with 23 samples.

Results

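Expression of 43 cell cycle and proliferation genes was described in mouse brain macrophages 1 day after an ischemic stroke. The genes were taken by symbol from the count table, where all 43 were found among 33280 genes. They were chosen by function rather than by level and were grouped by role into replication licensing (9 genes), DNA synthesis (5), cyclins and cyclin-dependent kinases (8), mitotic control (8), chromosome and spindle (11) and CDK inhibitors (2). The question was whether macrophages that had repopulated the brain after depletion still carried transcripts of dividing cells.

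All mice had the genotype Ccr2creERT2/+ R26tdT/tdT, in which tamoxifen turns on a tdTomato reporter (tdT) wherever Ccr2, a chemokine receptor of monocytes, is active, and the progeny of such cells keep the mark. A tdT+ cell therefore descended from a cell with Ccr2 at the time of tamoxifen, whereas a tdT− cell could be a resident cell or one that escaped recombination. The mice received BLZ945, which blocks the CSF-1 receptor on which brain macrophages depend, at 200 mg/kg for 7 days, or vehicle (CTL). Tamoxifen (2 mg per day) was given from the last gavage day, clotting was triggered with thrombin in the middle cerebral artery 8 weeks after gavage, and cells were sorted 1 day later. Microglia (MG, sorted as CD206−) and subdural CNS-associated macrophages (sdCAMs, sorted as CD206+ and divided by tdT), both gated without Ly6C, Ly6G and CD11c, came from a coronal brain slice without choroid plexus. There were 5 libraries each of CTL and BLZ945 MG and of tdT− sdCAMs from both treatments, and 3 of tdT+ sdCAMs, which were sorted from BLZ945 brains. By the animal numbers in their names, CTL libraries held cells of 1 animal each and BLZ945 libraries those of 2, except the libraries named F2, whose names give 1 number although the methods describe pooling for every BLZ945 replicate, so pooling and treatment cannot be told apart. Letters F and M in library names stand for female and male, and the sample labels gave no age. All groups had a stroke, and no unstroked or cycling reference cells were analysed here.

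A cell that enters the cycle first loads the MCM helicase onto replication origins with the help of Cdc6 and Cdt1. Cyclin D and cyclin E with their kinases then carry it into S phase, in which ribonucleotide reductase, thymidylate synthase and PCNA serve DNA synthesis. Cyclin A, cyclin B and Cdk1 lead into mitosis, where Aurora and Polo kinases and the spindle checkpoint act, and the anaphase-promoting complex with Cdc20 and Ube2c ends it. Cdkn1a (p21) and Cdkn1b (p27) hold the kinases back. Microglia of the healthy adult brain divide rarely, and depletion followed by repopulation is a setting in which they are known to proliferate strongly at first.

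Promoter sequences of early and late members differed in the share with E2F and cell cycle homology motifs, without a test of the difference. Genes of licensing and synthesis are classically driven by E2F factors, and late genes by the DREAM and MuvB complexes, which bind the cell cycle homology region (CHR, letters TTTGAA) with CCAAT boxes nearby. RefSeq promoters on GRCm38.p6, from 250 bases before to 50 bases after each start, matched 34 of the 43 members. Motifs were searched on both strands. TTTGAA was present in 11 of 15 mitotic and spindle members and in 1 of 12 licensing and synthesis members, with a share of 20.2% over all 27025 genes with a promoter. Either E2F motif, TTCCCGC or TTGGCGC, was present in 7 of 12 licensing and synthesis members and in 1 of 15 mitotic and spindle members, against 7.79% of all genes. CCAAT was present in 26 of 34 members, against 41.1% of all genes, and the CHR variant TTTAAA in 12 of 34, against 14.9%. CCAAT was common in both sets, in 8 of 12 licensing and synthesis members and 13 of 15 mitotic and spindle members. TTTAAA was present in 3 of 12 and 6 of 15. In 2 member promoters an E2F match shared bases with a CCAAT match. A match is a description of letters and was not tested as a binding site. The 180 bases before the start are shown for 2 helicase genes that hold an E2F motif more than once, with the E2F motif in capitals (on either strand). They are also shown for Cdk1, of the cyclin and kinase role, and Ube2c, of mitotic control, with TTTGAA in capitals (on either strand). The Cdk1 window also holds an E2F match, at position −178, which is left in lower case.
Mcm5, chr8:75109329-75109508, plus strand: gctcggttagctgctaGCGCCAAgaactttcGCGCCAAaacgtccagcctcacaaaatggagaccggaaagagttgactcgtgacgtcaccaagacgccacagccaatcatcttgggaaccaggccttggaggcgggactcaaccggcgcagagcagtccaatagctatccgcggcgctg
Mcm6, chr1:128359706-128359885, minus strand: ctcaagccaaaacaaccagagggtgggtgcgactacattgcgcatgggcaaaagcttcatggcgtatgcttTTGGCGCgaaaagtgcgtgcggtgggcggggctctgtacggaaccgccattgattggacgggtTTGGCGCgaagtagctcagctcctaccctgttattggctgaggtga
Cdk1, chr10:69352913-69353092, minus strand: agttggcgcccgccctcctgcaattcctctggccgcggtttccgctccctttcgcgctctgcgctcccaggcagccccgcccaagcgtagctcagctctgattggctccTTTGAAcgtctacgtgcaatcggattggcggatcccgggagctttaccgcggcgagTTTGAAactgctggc
Ube2c, chr2:164769749-164769928, plus strand: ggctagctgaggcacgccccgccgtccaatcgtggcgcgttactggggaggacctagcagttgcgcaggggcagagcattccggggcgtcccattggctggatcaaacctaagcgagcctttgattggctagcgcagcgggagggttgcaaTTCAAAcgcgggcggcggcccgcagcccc

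Library totals lay between 9433960 and 13276081 counts. Levels are given in CPM, counts scaled to library size with TMM factors, and 3 counts, taken as the floor below which a level cannot be told from 0, equalled 0.226 to 0.318 CPM. Floors cover counting error only, since PCR copies are not independent molecules. The 6 microglial markers summed to 16741 to 25527 CPM in MG and 1191 to 2376 CPM in sdCAMs, and 6 sdCAM markers to 12.1 to 49.2 CPM in MG and 11513 to 17074 CPM in sdCAMs, so the labels matched the markers. Neutrophil transcripts (8 markers, with Ly6g at 0 in MG) were highest among MG in CTL F3 and in BLZ945 F3 and M1, at up to 57.9 CPM. The tdT− BLZ945 libraries had the fewest genes with a count, 12733 to 14460 against 14633 to 15590 in tdT− CTL, and the F2 library of that group held 313 CPM of erythroid transcripts.

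The mitotic control genes were low, with group means of at most 4.64 CPM, whereas Pcna, Ccnd1 and Cdkn1a were at 27.7 CPM or more in every library. Of the 8 mitotic control genes, 1 was at or under the floor in most libraries of MG CTL, 3 in MG BLZ945 and 1 in tdT− CTL, against 6 in tdT− sdCAMs after BLZ945 and 5 in tdT+ sdCAMs. Levels per kilobase of exon, the scale on which genes can be compared, were below 1 CPM per kb for 18 of 43 members in MG CTL, 22 in MG BLZ945, 19 in tdT− CTL, 25 in tdT− sdCAMs after BLZ945 and 23 in tdT+ sdCAMs. Cdkn1a, the p21 inhibitor, had the highest level per kilobase of all members in each group, at 31.1, 46.0, 42.2, 53.2 and 34.6 CPM per kb in the same order. Pcna, the sliding clamp of DNA polymerase, reached 28.9, 22.1, 16.3, 18.3 and 19.7 CPM per kb. The number of members over the floor was 32 to 42 in MG CTL, 33 to 42 in MG BLZ945, 30 to 40 in tdT− CTL, 20 to 28 in tdT− sdCAMs after BLZ945 and 26 to 32 in tdT+ sdCAMs. With all libraries thinned to 9433960 counts, an alternative chosen after seeing the data, the means were 35.6 members in tdT− CTL and 24.8 in tdT− BLZ945. Over all genes at that depth, the mean number over the floor was 13032 in tdT− CTL and 12007 in tdT− BLZ945, and the number with a count 14894 and 13682, the latter without overlap. The part of this lower detection in the member values was not tested.

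**Figure D1:**
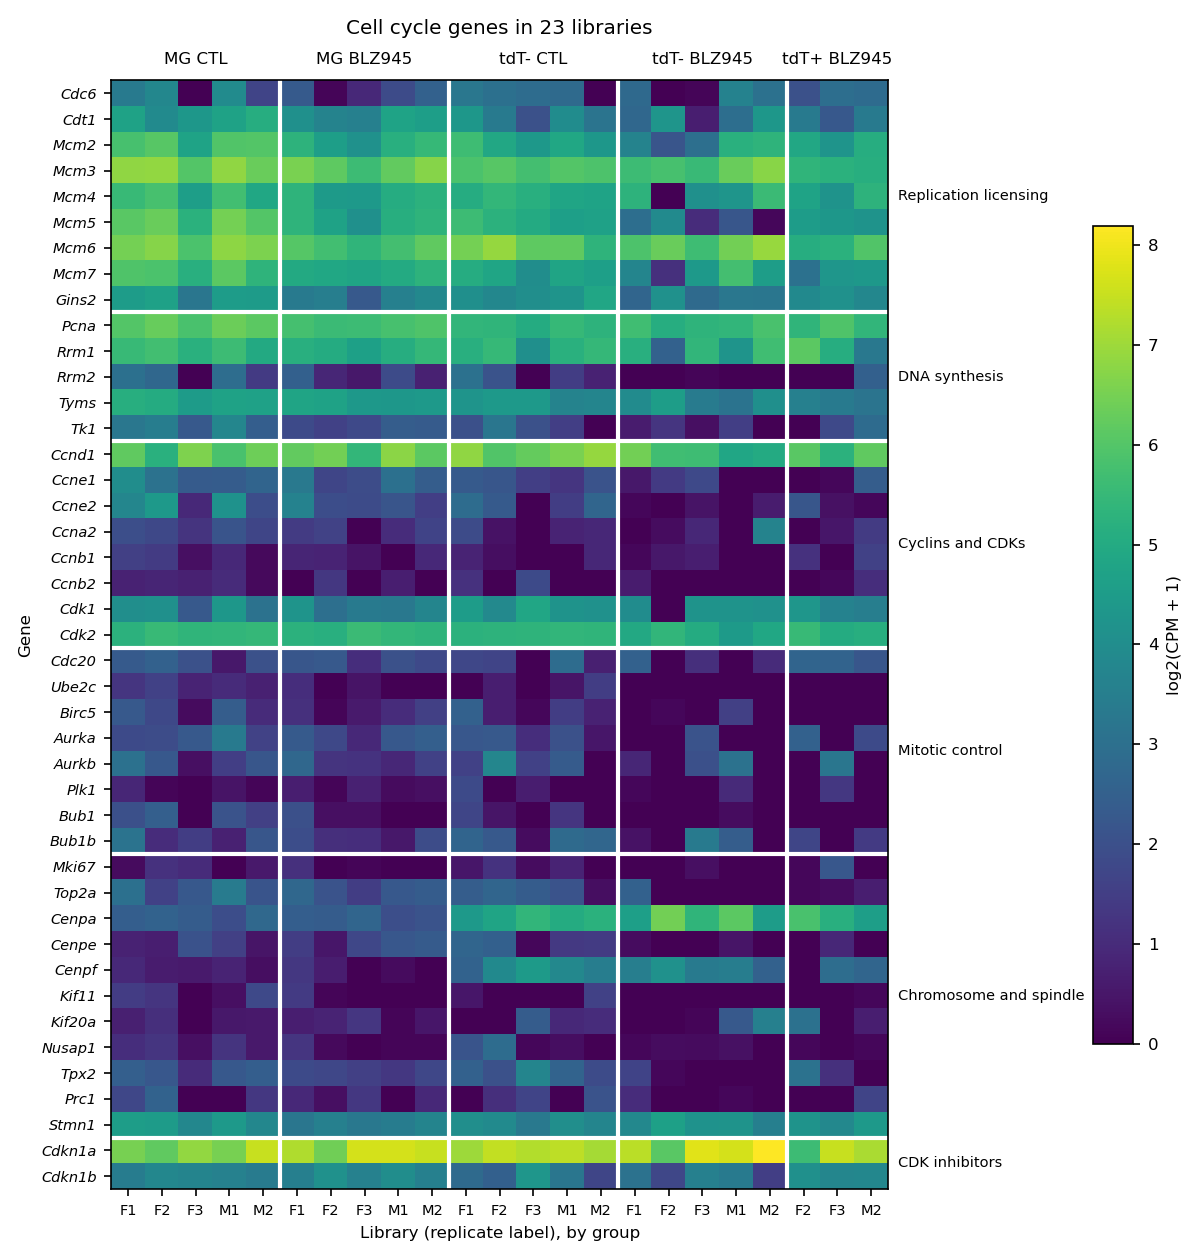
Level of each of the 43 members (rows, by role) in each of the 23 libraries (columns, by group), in log2(CPM + 1). Pcna, Ccnd1, Cdk2 and Cdkn1a are at 21.3 CPM or more in all libraries, the mitotic control genes are at 12.5 CPM or less, and members at 0 are most frequent in tdT− BLZ945 F2 and M2 (19 each).

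Mki67, whose protein Ki-67 is the usual marker of cycling cells, never exceeded 3.66 CPM. It stood at 0.184, 1.23, 1.03, 0 and 0.459 CPM in MG CTL (F1, F2, F3, M1 and M2, the order used throughout) and at 1.204, 0, 0.0853, 0 and 0 CPM in MG BLZ945. The tdT− CTL libraries held 0.421, 1.31, 0.197, 0.775 and 0 CPM, the tdT− BLZ945 libraries 0, 0, 0.270, 0 and 0 CPM and the tdT+ libraries (F2, F3 and M2) 0.0957, 3.66 and 0 CPM. Of the 13 BLZ945 libraries, MG F1, tdT− F3 and tdT+ F3 were therefore the only ones with Mki67 near or over the floor, and each group spanned 0. Mki67 was too low to be tested in any comparison but that of tdT+ sdCAMs with MG, where it was not called.

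Top2a, the topoisomerase that untangles chromosomes, was detected in all 10 MG libraries. It measured 7.07, 2.01, 3.76, 9.65 and 3.37 CPM in MG CTL and 5.62, 3.27, 1.79, 3.81 and 4.23 CPM in MG BLZ945, which overlapped. In sdCAMs it measured 4.30, 5.33, 4.25, 3.26 and 0.243 CPM in tdT− CTL, then 4.82, 0, 0, 0 and 0 CPM in tdT− BLZ945 and 0.0957, 0.198 and 0.602 CPM in tdT+ BLZ945. The 4 tdT− BLZ945 libraries at 0 lay below 4 of the CTL libraries but could not be told from CTL M2, which was at the floor with 3 counts, and F1 lay within the CTL range. The tdT− BLZ945 F1 library also held some transcripts that mark other blood cells. Of the monocyte genes, Ccr2 (121 CPM), Plac8 (78.2 CPM), Ly6c2 (8.79 CPM), Chil3 (6.11 CPM) and Itgal (9.33 CPM) were highest of the group in F1. Ly6c1 (2.14 CPM) and Nr4a1 (261 CPM) lay within the range of the other 4 libraries. Of the 8 neutrophil markers, Retnlg was at 74.2 CPM and all others were at 0, and 6 T and NK cell genes summed to 12.8 CPM. In the other 4 libraries of the group Ccr2 was at most 26.3 CPM and Retnlg 0, and Plac8 reached 73.5 CPM in M1. The part of these transcripts in the level of Top2a was not tested.

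Cdk1, the kinase of mitotic entry, was present at similar levels in nearly all sdCAM libraries. Its level was 22.2, 13.4, 27.8, 17.5 and 16.5 CPM in tdT− CTL, 14.9, 0, 17.4, 17.3 and 16.8 CPM after BLZ945, and 18.6, 11.3 and 10.2 CPM in tdT+ sdCAMs. In MG it ranged from 3.93 CPM in CTL F3 to 19.3 CPM in CTL M1, with 15.6, 16.5 and 7.58 CPM in CTL F1, F2 and M2, and it was 17.8, 7.04, 9.38, 8.68 and 12.2 CPM in BLZ945. Of its cyclin partners, Ccnb1 was at most 2.01 CPM and Ccnb2 at most 2.57 CPM in any library. Ccna2 was at most 3.33 CPM in all libraries but tdT− BLZ945 M2, where it reached 11.6 CPM. A bulk library cannot tell fewer cells that carry a transcript from less of it in each cell.

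The mean log2(CPM + 1) over the 43 members (member score) was 3.39, 3.32, 2.51, 3.25 and 2.95 in MG CTL and 3.06, 2.50, 2.37, 2.67 and 2.80 in MG BLZ945. The tdT− scores were 3.19, 3.05, 2.65, 2.89 and 2.60 in CTL and 2.32, 1.82, 2.19, 2.42 and 2.30 in BLZ945, and the tdT+ scores were 2.43, 2.39 and 2.56. From the highest group mean to the lowest, the order was MG CTL (3.09 ± 0.36, SD, with n = 5 unless given), tdT− CTL (2.88 ± 0.25), MG BLZ945 (2.68 ± 0.27), tdT+ BLZ945 (2.46 ± 0.087, n = 3) and tdT− BLZ945 (2.21 ± 0.23). Each group overlapped its neighbour in that order. With the median over members in place of the mean, tdT+ sdCAMs lay above MG BLZ945 (difference 0.31, against −0.22 with the mean), and the difference of tdT− BLZ945 from tdT− CTL was −1.12. BLZ945 and CTL overlapped in MG, where the difference in means was −0.40, and did not overlap in tdT− sdCAMs, where it was −0.67. The tdT+ scores also lay below those of all tdT− CTL libraries (difference in means −0.41) and above their tdT− partners of the same animal or pool in all 3 library pairs, by 0.61, 0.20 and 0.26. No test was run on the score, because the members were chosen with results of these data known. In MG, CTL F3 had the lowest CTL score and also 34.1 CPM of neutrophil transcripts, whose part in the score was not tested. With that library and BLZ945 F3 and M1 left out, chosen after seeing the data, the MG score difference was −0.44. Markers of oligodendrocyte precursors (4 genes) summed to 0 to 2.22 CPM in MG CTL and 5.32 to 11.4 CPM in MG BLZ945, without overlap. Of these, Cspg4 alone gave 0 to 1.65 CPM in CTL and 4.70 to 11.1 CPM in BLZ945. The part of such transcripts in the MG score was not tested. In tdT− sdCAMs, summed dendritic cell markers (6 genes, Xcr1 at 0) were 219 to 780 CPM in CTL and 31.4 to 164 CPM in BLZ945 and did not overlap either. Cd209a alone gave 206 to 754 CPM in CTL and 19.1 to 140 CPM in BLZ945, and without it, a sum chosen after seeing the data, the other 5 genes overlapped at 13.1 to 28.0 CPM and 12.2 to 44.1 CPM. The part of these markers in the score was not tested. Without tdT− BLZ945 F2 and M2, also chosen after seeing the data, the tdT− score difference was −0.56.

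**Figure D2:**
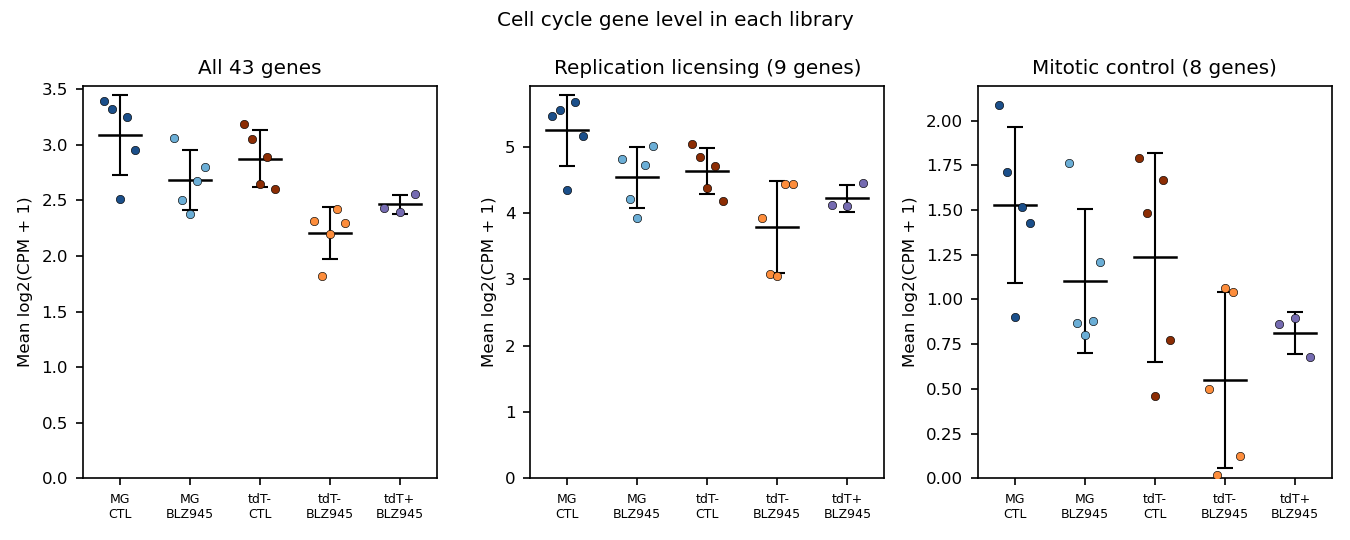
Mean log2(CPM + 1) over all 43 members, over the 9 replication licensing genes and over the 8 mitotic control genes, by group. Each point is a library, lines are group means and bars are SD. The tdT− BLZ945 libraries lie below all tdT− CTL libraries for the 43 members, and the mitotic control score is lowest in tdT− BLZ945 (mean 0.55).

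Repopulated MG were compared with MG CTL to ask whether they still differed in replication genes 8 weeks after depletion. No member passed the test. Of 34 members tested with edgeR, 0 were called at an adjusted p under 0.05, against 0.408% of the 11264 genes tested. At an unadjusted p under 0.05 there were 9 members, against 13.2% of all genes tested, and 8 of the 34 were lower in BLZ945 at that level, against 6.23% of all genes. The median log2 fold change of the tested members was −0.57, beside 0.00 over all tested genes. Mean CPM was lower in BLZ945 for 37 of the 43 members, beside 48.2% of all genes with a count. DESeq2 called 6 members, all lower, namely Gins2, Mcm5, Mcm6, Mcm7, Stmn1 and Tk1. Without a filter on low counts edgeR also called 6, all lower, with Mcm2 in place of Tk1. The 9 members not tested for low counts were Ccnb1, Ccnb2, Ube2c, Plk1, Mki67, Cenpf, Kif11, Kif20a and Nusap1.

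The members with the smallest p in MG were those of the replicative helicase. Mcm5, a helicase subunit, measured 68.0, 79.5, 36.3, 87.7 and 62.6 CPM in CTL and 38.9, 25.2, 16.4, 34.2 and 39.3 CPM in BLZ945. Of the CTL libraries, F3 was as low as the BLZ945 libraries and the other 4 were above all of them. The log2 fold change was −1.13 (SE 0.24, adjusted p = 0.0586, edgeR). Without CTL F3 it was −1.28 with an adjusted p of 0.0137, and without CTL M2 −1.15 with an adjusted p of 0.0449. Mcm6 gave −0.72 (SE 0.17, adjusted p = 0.0816), and 0.0242 without CTL F3. For Mcm7 the value was −0.76 (SE 0.18, adjusted p = 0.0785), with 0.0321 without CTL F3 and 0.0340 without CTL M2. Gins2, of the GINS complex that activates the helicase, gave −1.06 (SE 0.31, adjusted p = 0.152), and 67.3% of its exon bases overlap Gse1 on the other strand, so reads of the pair cannot be told apart. A replicate block, which pairs CTL and BLZ945 libraries only by their shared label, called Gins2, Mcm2, Mcm5 and Mcm6, all lower.

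Beyond the helicase, Stmn1, a protein that destabilizes microtubules, was the only tested member without overlap in MG, where 1.36% of all tested genes were lower without overlap. It lay between 12.7 and 22.5 CPM in CTL and between 8.33 and 11.8 CPM in BLZ945 (log2 fold change −0.88, SE 0.22, adjusted p = 0.0842, and 0.0411 without CTL M2). Pcna measured 62.9, 76.7, 56.7, 81.4 and 69.4 CPM in CTL and 54.3, 46.7, 48.6, 55.2 and 60.0 CPM in BLZ945, with only CTL F3 inside the BLZ945 range (−0.40, SE 0.12, adjusted p = 0.177). Tk1, a thymidine kinase of the salvage pathway, gave −1.35 (SE 0.38, adjusted p = 0.14). Cyclin D1 (Ccnd1) overlapped fully, at 72.7, 36.1, 95.7, 56.9 and 82.8 CPM in CTL and 73.4, 86.4, 42.3, 107 and 69.1 CPM in BLZ945.

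Cdkn1a was the only member with an unadjusted p under 0.05 that was higher in MG BLZ945. It measured 90.7, 72.8, 116, 89.97 and 182 CPM in CTL and 147, 85.3, 200, 202 and 182 CPM in BLZ945. The groups overlapped and the log2 fold change of 0.55 (SE 0.25) did not pass (adjusted p = 0.35, edgeR). Cdkn1b, the p27 inhibitor, measured 9.82, 12.8, 11.97, 11.2 and 9.57 CPM in CTL and 10.5, 16.5, 11.2, 15.1 and 10.99 CPM in BLZ945.

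**Figure D3:**
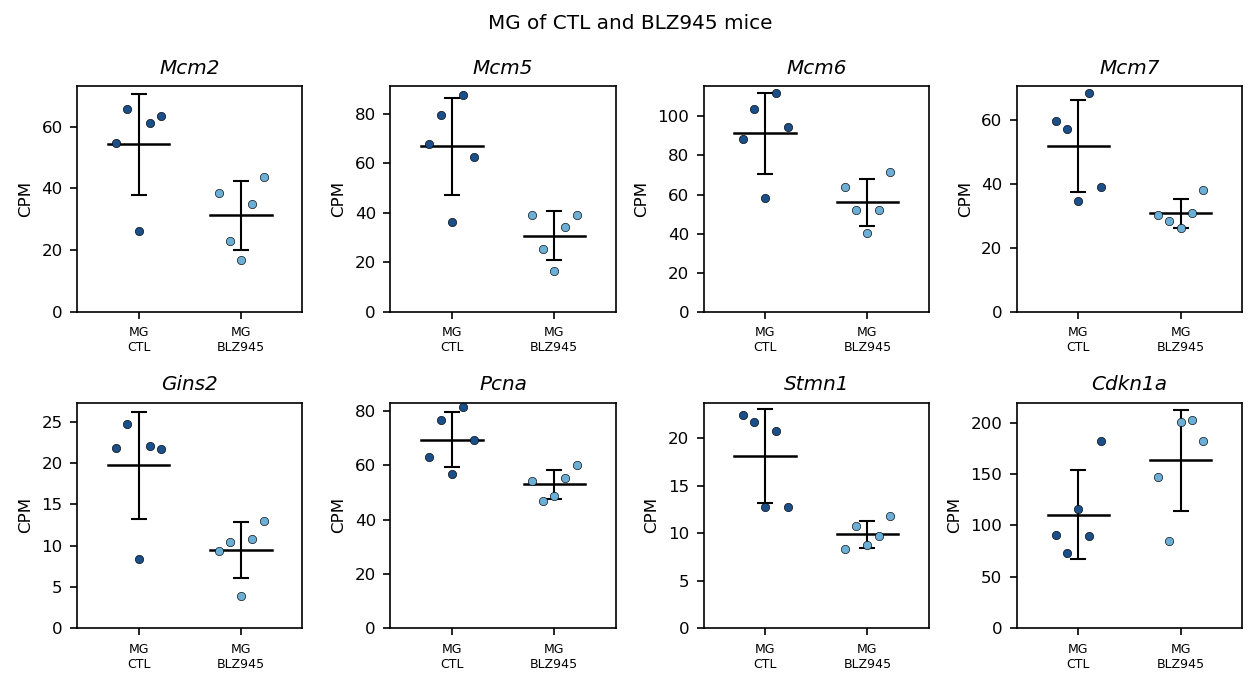
CPM of 8 members in the 5 MG CTL and the 5 MG BLZ945 libraries, each point a library and each line a group mean. The BLZ945 points lie low for Mcm5 (16.4 to 39.3 CPM against 36.3 to 87.7 CPM in CTL) and Stmn1, and Cdkn1a points spread over both groups.

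Within MG CTL, several genes of S phase differed widely between libraries. Cdc6, which loads the helicase, measured 9.18, 12.8, 0, 14.6 and 2.22 CPM in CTL, and Ccne2, a cyclin E, 12.7, 20.6, 0.940, 17.1 and 2.83 CPM. Rrm2, the small subunit of ribonucleotide reductase, measured 7.07, 5.69, 0, 6.66 and 1.61 CPM. F1, F2 and M1 were thus high and F3 and M2 low for all 3 genes. Among the BLZ945 libraries, F1 was the highest for Ccne2 (11.3 CPM) and Rrm2 (4.72 CPM), whereas Cdc6 was highest in M2 (4.82 CPM, with 4.01 CPM in F1).

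The tdT− sdCAMs of BLZ945 and CTL brains were compared next, and no member passed the test. Of 36 members tested in the model of the 13 sdCAM libraries, edgeR called 0, against 0% of 13076 genes. An unadjusted p under 0.05 was found for 7 members, all lower in BLZ945, against 2.76% of all genes tested that were lower at that level. The median log2 fold change of the tested members was −0.55 and that of all genes 0.00. Mean CPM was lower in BLZ945 for 35 of 43 members, beside 52.5% of genes with a count. DESeq2 called 1 member, Mcm5. The common coefficient of variation between sdCAM libraries was 0.704, against 0.253 in MG, which limits what can be called.

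Mcm5 measured 48.3, 37.8, 31.0, 23.7 and 24.95 CPM in tdT− CTL and 6.75, 14.1, 1.08, 3.602 and 0.111 CPM in tdT− BLZ945, with no overlap. Its log2 fold change was −2.70 (SE 0.73, adjusted p = 0.518 with edgeR and 0.0298 with DESeq2), and in a model of all 23 libraries its adjusted p was 0.0404. The other helicase subunits were not all placed like it, since Mcm6 spanned 49.6 to 121 CPM in BLZ945 and 39.5 to 118 CPM in CTL. Tpx2, which nucleates spindle microtubules, was the other member without overlap, at 2.67 to 12.2 CPM in CTL and 0 to 2.14 CPM in BLZ945. Over all genes tested, 1.22% were lower without overlap. Cyclin D1, which drives the exit from G1, measured 113, 61.4, 76.1, 91.7 and 119 CPM in CTL and 85.6, 50.8, 49.1, 27.7 and 31.3 CPM in BLZ945. Only BLZ945 F1 reached the CTL range (log2 fold change −0.91, SE 0.30, adjusted p = 0.684), and 23.4% of the exon bases of Ccnd1 overlap LTO1 on the other strand.

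Several synthesis and spindle members were at or near 0 in tdT− BLZ945. Rrm2 measured 7.41, 3.24, 0, 1.78 and 0.729 CPM in CTL and 0, 0, 0.0899, 0 and 0 CPM in BLZ945, where the group held 1 count in all. Ccne2 measured 6.49, 4.02, 0, 1.78 and 5.43 CPM in CTL and 0.107, 0, 0.359, 0 and 0.557 CPM in BLZ945. For Cenpe, a kinetochore motor, the values were 5.31, 4.71, 0.0987, 1.55 and 1.70 CPM in CTL and 0.214, 0, 0, 0.389 and 0 CPM in BLZ945. Each of the 3 genes had a CTL library, F3, as low as the BLZ945 libraries. Pcna did not share this, at 41.3, 39.8, 31.8, 44.3 and 38.6 CPM in CTL and 49.9, 33.1, 39.3, 40.9 and 56.8 CPM in BLZ945.

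The CDK inhibitors of tdT− sdCAMs overlapped widely. Cdkn1a measured 127, 171, 152, 164 and 136 CPM in CTL and 162, 67.0, 224, 201 and 292 CPM in BLZ945. For Cdkn1b the values were 6.06, 4.71, 18.8, 8.22 and 2.27 CPM in CTL and 7.50, 2.38, 10.9, 9.25 and 1.89 CPM in BLZ945. The spread within BLZ945 exceeded the difference between groups for both.

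The tdT+ sdCAMs, whose ancestors expressed Ccr2, were compared with all 5 tdT− BLZ945 libraries, of which F2, F3 and M2 came from the same animal or pool as a tdT+ library. Of 36 members tested, edgeR called 0, against 0.206% of all genes, with 4 members at an unadjusted p under 0.05, beside 6.91% of genes, and 0 called by DESeq2. Mcm5 was higher in tdT+ at 22.1, 19.3 and 17.7 CPM, above all 5 tdT− BLZ945 libraries (log2 fold change 1.94, SE 0.78, adjusted p = 0.659). Mcm3 was lower at 40.4, 36.3 and 34.5 CPM, below the 48.0, 55.4, 45.8, 78.5 and 105 CPM of tdT− BLZ945 (−0.86, SE 0.27, adjusted p = 0.478). These 2 subunits of the same helicase thus lay in opposite directions without overlap. Cdkn1b was the other member without overlap, at 16.4, 12.5 and 12.7 CPM in tdT+ and 1.89 to 10.9 CPM in tdT− BLZ945 (log2 fold change 1.10, SE 0.71, adjusted p = 0.857). Of all tested genes, 3.41% had no overlap. Rrm2 was seen in 1 tdT+ library, at 4.71 CPM in M2, and Mki67 at 3.66 CPM in F3, where Aurkb, the kinase of the chromosomal passenger complex, was 8.31 CPM, Plk1 1.48 CPM and Top2a 0.198 CPM. Rrm2 thus stood in another library than Mki67, Aurkb and Plk1. Pcna measured 40.3, 60.3 and 41.0 CPM and Ccnd1 66.8, 37.3 and 71.4 CPM in tdT+ sdCAMs.

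The same tdT+ libraries were also compared with tdT− CTL, which was also the control of tdT− BLZ945. Of 36 members tested, edgeR called 0, against 0.283% of genes, with 3 members at an unadjusted p under 0.05, beside 7.44% of genes, and 0 called by DESeq2. Mean CPM was lower in tdT+ for 33 of 43 members, beside 55% of all genes with a count. Over all genes thinned to equal depth, the mean number over the floor was 12331 in tdT+ and 13032 in tdT− CTL. The mean number with a count was 14017 and 14894, and neither measure overlapped. The part of this lower detection in the member values was not tested. Mcm3, Mcm5 and Tyms (thymidylate synthase) did not overlap and were lower in tdT+, whereas 4.99% of all tested genes were lower without overlap. Birc5 (survivin) had 0 counts in tdT+, but tdT− CTL F3 held 1 count, which is under the floor too. Tyms was 18.1, 20.2, 19.9, 11.7 and 12.4 CPM in tdT− CTL and 10.9, 9.10 and 7.82 CPM in tdT+. The inhibitors were at 48.2, 180 and 141 CPM for Cdkn1a and at 16.4, 12.5 and 12.7 CPM for Cdkn1b in tdT+, within the ranges of tdT− CTL apart from Cdkn1a in F2 and F3.

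**Figure D4:**
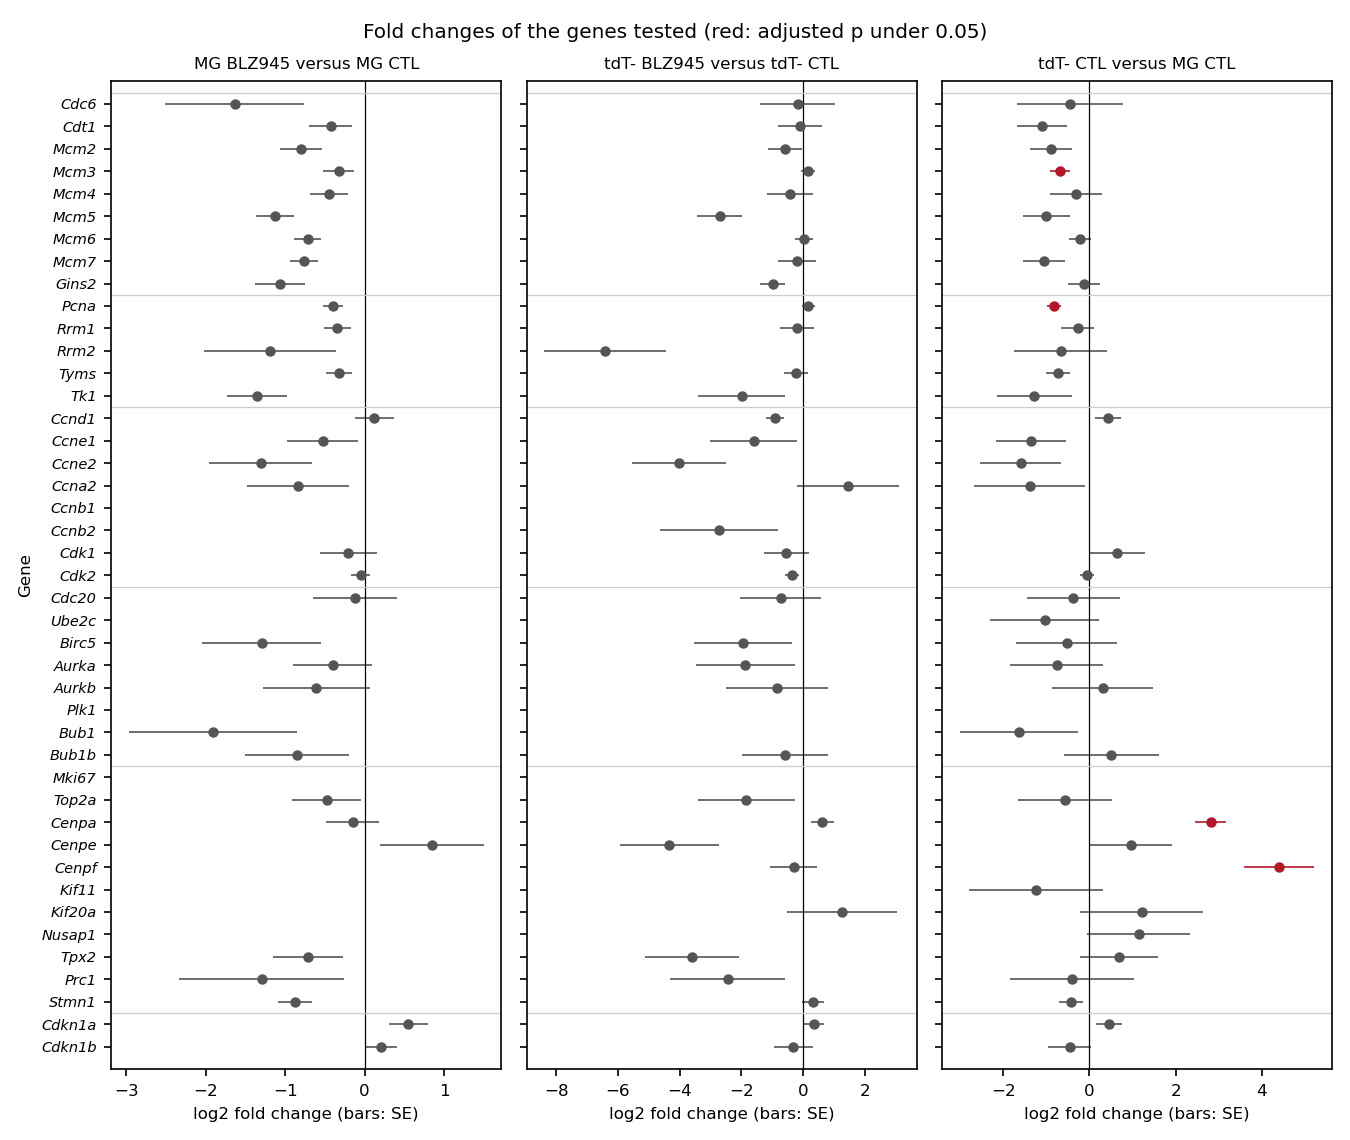
Log2 fold change with SE of the tested members in MG BLZ945 against MG CTL, in tdT− BLZ945 against tdT− CTL and in tdT− CTL against MG CTL, with members called at an adjusted p under 0.05 in red. Members lie mostly below 0 in the first 2 contrasts with none called, and Cenpa, Cenpf, Pcna and Mcm3 are called in the third.

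Between the cell types of CTL brains, Cenpa and Cenpf were higher in tdT− sdCAMs, and Pcna and Mcm3 higher in MG. With all members counted, edgeR called 4 of 39 members tested, against 25.6% of the 12697 genes tested. Of these 4 members, 2 were higher in tdT− sdCAMs, beside 15.3% of genes, and 2 lower, beside 10.3%. In either direction, 6 of the 39 members did not overlap between the groups, beside 3405 of the 12697 genes. Cenpa, the histone variant that marks centromeres, measured 20.8, 26.4, 40.7, 31.6 and 36.5 CPM in tdT− CTL and 4.40, 4.90, 4.27, 2.82 and 5.82 CPM in MG CTL. It was higher in all 5 sdCAM libraries, 7.04-fold in the fit (log2 fold change 2.82, SE 0.36, adjusted p = 2.91e-06). Cenpf, a kinetochore protein, measured 4.97, 13.7, 21.1, 13.3 and 10.05 CPM in tdT− CTL and 0.918, 0.525, 0.513, 0.768 and 0.230 CPM in MG CTL, again without overlap (4.41, SE 0.81, adjusted p = 0.000264). Of the other chromosome and spindle members edgeR called none, and Cenpe, Top2a, Kif11 and Mki67 overlapped between the cell types. The score over the 11 members of that role, Cenpa and Cenpf included, was higher in tdT− CTL without overlap (difference in means 0.49). Among G2 and M phase genes that are no members, Incenp, of the chromosomal passenger complex, was also called higher, at 14.4 to 48.9 CPM against 7.00 to 14.9 CPM (1.503, SE 0.42, adjusted p = 0.00977).

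Pcna was lower in tdT− CTL than in MG CTL without overlap (log2 fold change −0.82, SE 0.16, adjusted p = 0.000463). For Mcm3, 57.9, 65.9, 53.1, 63.7 and 59.4 CPM in tdT− CTL stood against 112, 115, 62.6, 113 and 79.7 CPM in MG CTL, with MG F3 inside the sdCAM range. The log2 fold change of −0.68 (SE 0.23, adjusted p = 0.0329) lost its call in 6 of 10 fits that left out 1 library, namely MG F1, F2 or M1 or tdT− F1, F3 or M2, with an adjusted p of up to 0.0820.

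The same cell types of BLZ945 brains differed in 8 of 39 members with edgeR, against 32.4% of all genes tested. In tdT− sdCAMs 3 members were higher, beside 18.3% of genes, and 5 lower, beside 14.1%. Cenpa measured 23.5, 85.9, 40.5, 68.8 and 22.04 CPM in tdT− BLZ945 and 4.42, 4.19, 5.37, 2.92 and 3.30 CPM in MG BLZ945 (log2 fold change 3.58, SE 0.37, adjusted p = 1.39e-07). Cenpf measured 10.4, 16.6, 9.17, 10.1 and 4.79 CPM against 1.51, 0.587, 0, 0.177 and 0 CPM (4.50, SE 0.83, adjusted p = 0.00023). Both were above MG in each of the 5 pairs of libraries with the same label. Stmn1 was also called higher (0.75, SE 0.28, adjusted p = 0.0435), at 13.3, 24.2, 17.2, 17.6 and 10.6 CPM against 8.33, 10.8, 8.78, 9.75 and 11.8 CPM, with M2 below the highest MG library. The Stmn1 call was lost without any one of the 5 MG libraries or of tdT− F2, F3 or M1, with an adjusted p of up to 0.118, with the animal as a block (0.0754), without a filter on low counts (0.118), in the model of all 23 libraries (0.0525) and without tdT− F2 and M2 (0.0536).

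The 5 members lower in tdT− BLZ945 than in MG BLZ945 were Mcm5, Rrm2, Ccne2, Cenpe and Ccne1. Mcm5 lay below MG in each of the 5 library pairs (log2 fold change −2.58, SE 0.59, adjusted p = 0.00182). Rrm2 had 1 count over the 5 tdT− libraries and 100 in MG, where it measured 4.72, 0.838, 0.426, 2.66 and 0.676 CPM, a ratio of 86.3 (95% counting interval 15.1 to 3442, adjusted p = 0.00497). Ccne2 gave −4.35 (SE 1.13, adjusted p = 0.00518), with MG BLZ945 at 11.3, 2.85, 2.64, 3.46 and 1.86 CPM, and 17.4% of its exon bases overlap Ints8 on the other strand. Cenpe gave −4.22 (SE 1.13, adjusted p = 0.00663), with MG BLZ945 at 1.81, 0.419, 2.39, 3.63 and 4.14 CPM. These 4 genes did not overlap between the groups. Neither did Tk1, which was lower but not called, at no more than 1.85 CPM in tdT− against 2.01 CPM or more in MG. Over all tested genes, 11.6% were lower without overlap. In either direction, 7 of 39 members did not overlap, beside 2793 of 12697 genes. For Ccne1, the other cyclin E, 0.429, 1.62, 2.52, 0 and 0 CPM in tdT− stood against 8.93, 2.26, 2.73, 7.09 and 4.31 CPM in MG, with 1 tdT− library inside the MG range. The Ccne1 call (−2.43, SE 0.86, adjusted p = 0.0341) was lost without MG F1, M1 or M2 or tdT− F1, with an adjusted p of up to 0.0851, when all 23 libraries were modelled (0.0854) and with the animal as a block (0.0550). That block called 10 members, among them Aurka, Mcm2, Top2a and Tpx2 as lower.

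Against all 5 MG BLZ945 libraries, of which 3 shared an animal or pool with a tdT+ library, tdT+ sdCAMs differed in 5 of 42 members tested with edgeR, beside 25.2% of genes. Of the 5, 2 were higher in tdT+ (14.6% of genes) and 3 lower (10.6%). In either direction, 8 of the 42 members did not overlap between the groups, beside 4558 of the 13790 genes tested. Cenpa was higher at 56.8, 35.0 and 23.4 CPM (log2 fold change 3.24, SE 0.40, adjusted p = 1.17e-06). Cenpf was higher in the fit at 0, 6.63 and 5.32 CPM, with the F2 library at 0 (3.13, SE 1.03, adjusted p = 0.0273). The call of Cenpf was lost without MG F3, M1 or M2 or without tdT+ F3 or M2, with an adjusted p of up to 0.110, with the animal as a block (0.0696) and in the model of the 13 BLZ945 libraries (0.114). Mcm3 was lower than the 92.2, 71.1, 48.6, 74.3 and 102 CPM of MG BLZ945 without overlap (−1.07, SE 0.27, adjusted p = 0.00471). Tyms was lower without overlap as well, against 26.8, 25.3, 19.4, 19.1 and 20.2 CPM in MG (−1.26, SE 0.34, adjusted p = 0.00741), and its call was lost in the model of the 13 BLZ945 libraries (0.0503). Birc5, which protects dividing cells, had 0 counts in the 3 tdT+ libraries and 54 in MG BLZ945, where it measured 1.204, 0.0838, 0.512, 1.06 and 1.94 CPM. It was at least 3.26-fold lower, taking 3 counts per library as the floor (adjusted p = 0.0374). The Birc5 call was lost without MG F1, M1 or M2 or any one of the tdT+ libraries, with an adjusted p of up to 0.101, with the animal as a block (0.0654), without a filter on low counts (0.0531) and in the model of the 13 BLZ945 libraries (0.0888).

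**Figure D5:**
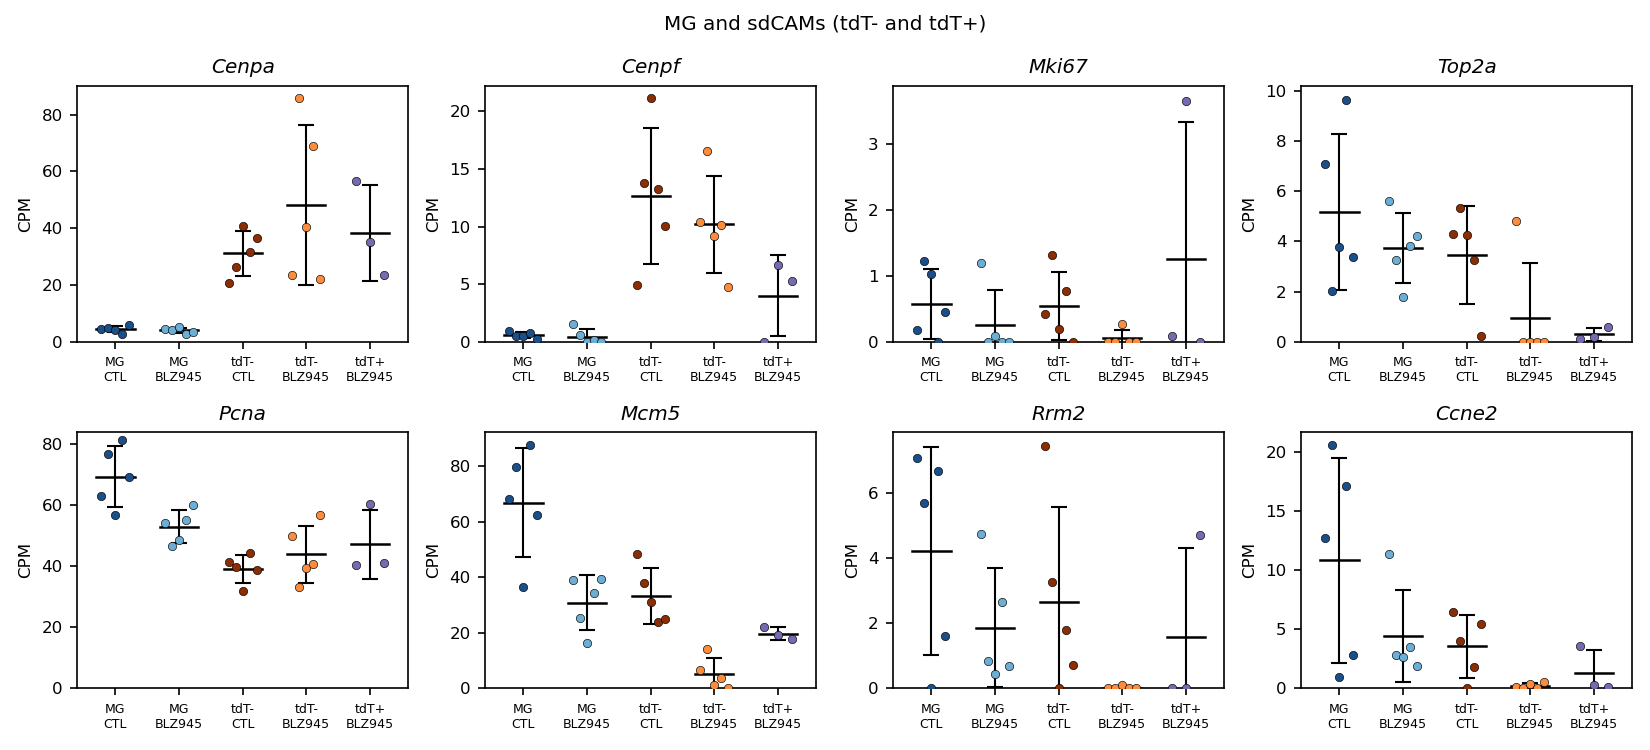
CPM of 8 members in the 5 groups, each point a library and each line a group mean. Cenpa and Cenpf are high in the sdCAM groups, apart from Cenpf at 0 in tdT+ F2, and low in MG, Mcm5 is lowest in tdT− BLZ945 (0.111 to 14.1 CPM), and Mki67 is at most 3.66 CPM and Top2a at most 9.65 CPM.

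An interaction term asked if BLZ945 acted unequally on members in MG and in tdT− sdCAMs. Of 39 members tested, edgeR called 0, against 0.0394% of all genes, with 6 members at an unadjusted p under 0.05, beside 8.69% of genes. DESeq2 called 1, Cenpe. The tdT− BLZ945 F1 library was the only one of its group with Top2a, held most of its Tpx2 and had the most Ccr2. Without it, edgeR called Top2a (adjusted p = 0.0200) and Tpx2 (0.00966), both more strongly lower in tdT− sdCAMs. The libraries left in that group held 0 counts of Top2a and at most 1 of Tpx2. These calls therefore cannot be told from the effect of leaving that library out.

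Other genes of the pathway were followed through lists of 22 G1 regulators, 6 further CDK inhibitors, 30 further S phase genes, 56 further G2 and M phase genes, 21 p53 targets and 8 quiescence genes. In the 4 contrasts within a cell type and in the interaction, edgeR called 0 genes of any list, with 0 to 13 genes of a list at an unadjusted p under 0.05. DESeq2 called in MG BLZ945 against CTL Dtl, Gins1 and Pold1 (further S phase genes), H2az1 and Pkmyt1 (G2 and M phase) and E2f1 (G1) as lower, and of the CDK inhibitors Cdkn2b as higher and Cdkn1c as lower. In the other contrasts DESeq2 called Ndc80 lower in tdT− BLZ945 than in tdT− CTL and than in tdT+, also with a negative interaction (the tdT− change minus the MG change), and in tdT+ against tdT− CTL Cdkn2c higher and Cdc7 and Uhrf1 lower. In MG BLZ945 against CTL, 13 of the 29 further S phase genes tested had an unadjusted p under 0.05 and were lower, beside 6.23% of all genes tested. A negative log2 fold change was found for 27 of the 29, beside 49.96% of all genes, and their median was −0.49, beside 0.00 over all genes. The median was −0.20 for the 46 further G2 and M phase genes tested, −0.02 for the 19 G1 regulators, 0.45 for the 5 CDK inhibitors and 0.17 for the 19 p53 targets. For the further S phase genes in tdT− BLZ945 against tdT− CTL it was 0.01 over 27 genes, with 0 at an unadjusted p under 0.05.

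Between cell types of CTL brains, 15.3% of all genes tested were called higher in tdT− sdCAMs and 10.3% lower. Of 20 G1 regulators tested, edgeR called 3 higher and 4 lower, of 30 further S phase genes 0 higher and 4 lower, and of 48 further G2 and M phase genes 1 higher and 2 lower. Of 5 CDK inhibitors it called 1 higher and 0 lower, of 19 p53 targets 3 higher and 3 lower, and of 8 quiescence genes 3 higher and 2 lower. Ccnd2, a cyclin D, rose from 2.13 to 3.76 CPM in MG CTL to 11.1 to 56.4 CPM in tdT− CTL (log2 fold change 3.56, SE 0.59, adjusted p = 7.27e-05). E2f2, an activator of S phase genes, was lower at 0 to 1.47 CPM against 3.599 to 10.002 CPM (−4.35, SE 1.38, adjusted p = 0.0227), and so was Pole, a subunit of DNA polymerase epsilon, at 0 to 0.486 CPM against 0.766 to 3.94 CPM (−4.19, SE 1.44, adjusted p = 0.0357). E2f3, a relative of E2f2, was lower in tdT− CTL (−1.75, SE 0.44, adjusted p = 0.00434). Cdkn2c, the p18 inhibitor of Cdk4 and Cdk6, was higher (1.25, SE 0.32, adjusted p = 0.00584). Among quiescence genes, Klf4 was higher (2.53, SE 0.32, adjusted p = 2.05e-06) and Ccng2, a cyclin of arrested cells, lower (−1.91, SE 0.26, adjusted p = 6.36e-06). Among p53 targets, Fas was higher (2.97, SE 0.41) and Plk3 lower (−1.30, SE 0.35).

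In BLZ945 brains 18.3% of all genes tested were called higher in tdT− sdCAMs than in MG and 14.1% lower. The counts were 3 higher and 6 lower of 20 G1 regulators tested, 2 and 0 of 5 CDK inhibitors, 1 and 5 of 30 further S phase genes, 4 and 6 of 48 further G2 and M phase genes, 3 and 3 of 19 p53 targets and 3 and 1 of 8 quiescence genes. Cdkn2c was higher by 1.75 on the log2 scale (SE 0.32, adjusted p = 0.000256), at 28.2 to 54.8 CPM against 8.12 to 17.9 CPM. Ndc80, of the kinetochore, had 0 counts in tdT− BLZ945 and 129 in MG BLZ945, where the lowest library was at 0 too, and its group mean was at least 7.43-fold lower. For tdT+ sdCAMs against MG the counts were 4 and 4 of 20 G1 regulators, 2 and 0 of 6 CDK inhibitors, 1 and 5 of 30 further S phase genes, 2 and 6 of 52 further G2 and M phase genes, 2 and 3 of 20 p53 targets and 3 and 1 of 8 quiescence genes, beside 14.6% of all genes called higher and 10.6% lower. Ccnd2 was higher there by 3.52 (SE 0.60, adjusted p = 9.32e-05), at 26.9 to 55.1 CPM, and E2f3 lower (−4.68, SE 0.75, adjusted p = 4.48e-05). E2f2 had 0 counts in the 3 tdT+ libraries and 422 in MG and was at least 25.5-fold lower.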

How the data were processed

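RNA of sorted cells from 23 libraries was sequenced, and the authors deposited raw whole-number counts for each gene symbol. Per the submitters' processing notes, bcl2fastq 2.20, STAR 2.7.11a, featureCounts 2.0.6 and DESeq2 1.46.0 were used. Strand and multi-mapping settings are not given in the sources used here, and the genome build of this table was not clear. Overlapping genes are therefore uncertain. Exon lengths and gene overlaps came from a GENCODE annotation of GRCm38, and the printed coordinates from RefSeq promoters on GRCm38.p6. Total counts per library were 9433960 to 13276081. The libraries differed beyond sampling noise and none was a duplicate.

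The test was that of edgeR 4.0.16 (R 4.3.3, TMM, filterByExpr, glmQLFit, glmQLFTest), with Benjamini-Hochberg adjustment over all genes tested and a call at an adjusted p under 0.05. The SE is the log2 fold change divided by the square root of F. Models used the 10 MG libraries, the 13 sdCAM libraries, 20 libraries for tdT− sdCAMs against MG and the interaction, and all 23 for tdT+ sdCAMs against MG. The score used log2(CPM + 1), with a pseudocount of 1 CPM, and was given no test. P-values measure the spread between these libraries.

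Alternatives were DESeq2 1.42.0, RLE scaling, no filter, sex as a covariate, other sets of libraries in the model, a replicate block and leaving out each library. Libraries of 1 treatment that share a label came from 1 animal or pool, so the animal was the block. Same-animal libraries had correlations of deviations of 0.0130 to 0.200. Libraries of different treatments with the same label, and so of different animals, had −0.0645 to 0.171, which covers most of that range. Between treatments labels share only a name. The number 258 stands in the names of 2 different BLZ945 labels, F2 and M1. These are labelled female and male, so it is not clear if they share an animal.

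Members and lists were chosen with earlier results of these data known. Values in every library are given for called members, up to the 3 largest changes per role and comparison, and for Mki67, Top2a, Pcna, Ccnd1, Cdk1, Cdkn1a and Cdkn1b. Other genes were named after their values were seen. Of the pathway lists, at most the 3 called genes of largest change per list and comparison are named. The test was checked on simulated counts. Python 3.11.15 with pandas 2.3.3 was used.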

Additional observations from a re-analysis of the deposited data

Results flagged for a closer look

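Over 76 checks of 19 items in groups of 5 libraries, 7 showed 1 library far from the other 4 by Dixon's 95% value, which chance passes in about 1 in 20 groups if values are normally distributed. Items with several libraries at 0 do not meet that condition. In MG BLZ945, F1 stood apart with Mki67 at 1.204 CPM (others 0 to 0.0853 CPM) and Ccne2 at 11.3 CPM (others 1.86 to 3.46 CPM). In tdT− BLZ945, Top2a was 4.82 CPM in F1 and 0 in the others, and Cdk1 was 0 in F2 and 14.9 to 17.4 CPM in the others. F3 of that group held Mki67 at 0.270 CPM and Rrm2 at 0.0899 CPM, both with 0 in the others, and the latter is under the floor of 3 counts. M1 held Birc5 at 1.95 CPM, with 0 to 0.108 CPM in the others. No explanation of these values was tested.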

How the results depend on the processing

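The number of members called depended most on the setting in MG BLZ945 against CTL, where edgeR called 0. DESeq2 called 6, edgeR without a filter 6, with the replicate block 4, with sex as a covariate 1 and without the 3 MG libraries highest in neutrophil transcripts (chosen after seeing the data) 1, all lower. Leaving out 1 library gave 0 to 3, with 3 each without CTL F3 or CTL M2. In tdT− BLZ945 against CTL, DESeq2 and the model of all 23 libraries called 1 each (Mcm5), and leaving out 1 library gave 0 to 0. For tdT+ sdCAMs against MG, 5 calls became 3 with the replicate block (the animal) and 2 in a model of the 13 BLZ945 libraries, and 3 to 5 with 1 library left out, with 3 each without MG M1 or MG M2. In the interaction, DESeq2 called 1, and leaving out 1 library gave 0 to 2. The cause was not tested. Counts were 3 to 4 for tdT− CTL against MG CTL and 6 to 10 for tdT− BLZ945 against MG BLZ945 with 1 library left out, and 0 throughout for tdT+ against either tdT− group. The replicate block moved no other count of calls by more than 1.5 times.

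Taking the median over members in place of the mean moved the score difference to −1.12 in tdT− BLZ945 against CTL, to 0.99 in tdT+ against tdT− BLZ945, to −0.13 in tdT+ against tdT− CTL and to 0.31 in tdT+ against MG BLZ945, where the mean gave −0.22. With 1 library left out the differences ranged from −0.55 to −0.33 in MG BLZ945 against CTL, −0.74 to −0.57 in tdT− BLZ945 against CTL, 0.15 to 0.31 in tdT+ against tdT− BLZ945, −0.48 to −0.34 in tdT+ against tdT− CTL, −0.30 to −0.12 in tdT+ against MG, −0.55 to −0.37 in tdT− against MG BLZ945 and −0.35 to −0.13 in tdT− CTL against MG CTL. Thinning to equal depth moved each score difference by less than the SD between libraries. The mitotic members near the floor limit what can be read from them at this depth.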
